A study of Homo sapiens with 6 samples.

Results

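The 42 genes described here encode the protein kinases and scaffolds that lead to the c-Jun N-terminal kinases (JNK) and the p38 kinases. They were chosen by name, tier by tier, with earlier results of these data known, although no measured value served as a filter. All 42 were found among the 36517 genes of the count table. The tiers held 7 MAP4K genes, 17 MAP3K genes (the 3 TAO kinase genes included), 4 MAP2K genes, 7 MAPK genes (3 for JNK and 4 for p38), 5 scaffold genes and 2 genes of the downstream kinases MAPKAPK2 and MAPKAPK3. The RNA came from the human breast cancer line MDA-MB-453 at day 3, in 6 libraries of messenger RNA, 3 from cells given lentivirus with a control hairpin (control) and 3 from cells given lentivirus with a hairpin against tRF-1-Ser (shtRF). tRF-1-Ser is a fragment released from the 3′ trailer of a precursor of serine transfer RNA. Libraries of messenger RNA do not measure it, so the knockdown could not be checked here and the groups rest on the labels. The study states that knockdown was checked by qPCR in its cell lines. It does not say whether these cultures were among those checked. The study's methods name 1 hairpin for each group, and whether replicates were separate transductions or dishes of 1 transduced population is not stated, so p-values measure the spread between these libraries, which may be technical.

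Signals of stress, inflammatory cytokines and growth factors pass down these kinases as a relay of phosphorylation. A MAP4K, an adaptor or a small GTPase switches on a MAP3K, the MAP3K phosphorylates a MAP2K, and the MAP2K phosphorylates JNK or p38 on a threonine and a tyrosine of its activation loop. JNK is best known for phosphorylating c-Jun and p38 for acting through MAPKAPK2 on RNA-binding and small heat shock proteins, and scaffold proteins hold the tiers of the JNK branch together. The activity of each kinase is set by phosphorylation, which transcript counts do not measure.

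The 2 kinds of MAPK differ in the residue between that threonine and tyrosine. The codons around it are shown for the 4 MAPK genes with the highest level or the clearest change, as GENCODE 29 transcript sequence on GRCh38, 27 bases from 5′ to 3′ on the coding strand with the Thr-X-Tyr codons in capitals.
MAPK8: tttatgatgACGCCTTATgtagtgact
MAPK9: ttcatgatgACCCCTTACgtggtgaca
MAPK13: gccgagatgACTGGCTACgtggtgacc
MAPK14: gatgaaatgACAGGCTACgtggccact
MAPK8 and MAPK9 have Thr-Pro-Tyr and MAPK13 and MAPK14 have Thr-Gly-Tyr. The windows lie at chr10:48420242-48420268 (plus strand, exon 5 of 11), chr5:180249025-180249051 (minus strand, exon 6 of 12), chr6:36136689-36136715 (plus strand, exon 7 of 12) and chr6:36075881-36075907 (plus strand, exon 7 of 12). MAPK8 and MAPK9 differ at 5 of the 27 bases, MAPK13 and MAPK14 at 7, and MAPK8 and MAPK14 at 13.

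Library totals ran from 63541413 to 78917459 counts, a 1.24-fold range. All 10 markers fixed for luminal and apocrine breast epithelium were expressed. EPCAM was at 504 CPM in control and 552 CPM in shtRF (counts per 1000000, scaled with TMM factors). Of the 10, 5 passed the test, where 39.5% of all tested genes did, among them KRT8 and KRT18 higher and GATA3 and ERBB2 lower. The GATA3 call was lost in 4 fits that left out 1 library and the ERBB2 call in 3. Those of KRT8 and KRT18 held in all 16 alternatives fitted. Of the markers of fibroblasts, leukocytes and endothelium, 11 of 15 had too few counts to test or were not matched, among them PTPRC with at most 5 counts and PECAM1 with at most 10. DCN, PDGFRB and CD3E were at 0 counts in every shtRF library. In the control libraries DCN had 2, 0 and 0 counts, PDGFRB 14, 3 and 7, and CD3E 0, 0 and 2. The summed level of the fibroblast list was 29.8 to 35.6 CPM in control and 20.6 to 21.4 CPM in shtRF, that of the leukocyte list 4.25 to 5.36 and 5.72 to 8.10 CPM, and that of the endothelial list 0.172 to 0.301 and 0.228 to 0.393 CPM. COL1A1 and CD68 made up nearly all of the first of these sums and of the second, and 85.8% of the CD68 exonic bases also lie in exons of 2 overlapping genes. Whether other cells had a part in any result was not tested. In bulk samples, fewer cells of a type and less RNA per cell cannot be told apart.

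Transcripts of the cascade were unevenly spread over its members. In control cells the level per length (RPKM, reads per kilobase of exon and per 1000000 counted reads) was highest for TAOK2 at 24 ± 0.595 RPKM (SD, n = 3), followed by the downstream kinase gene MAPKAPK2 at 21.3 ± 0.233 RPKM, TAOK3 at 19.8 ± 0.108 RPKM and the scaffold gene MAPK8IP3 at 16.8 ± 1.62 RPKM. The next member was TAOK1 at 13.1 RPKM, so that the 3 TAO kinase genes, which encode MAP3Ks of the stress and DNA damage responses, were among the 5 highest members. In all, 33 of the 41 members that could be tested reached 1 RPKM in control.

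In the JNK, MAP2K and MAPKAPK families 1 gene held most of the transcripts. MAPK9 made up 88.6% ± 1.58 of the JNK RPKM in control (SD, n = 3), MAPK8 10.6% ± 1.54, and MAPK10, the JNK gene known mainly from brain and heart, 0.737%. MAP2K7 made up 89.1% ± 0.879 of the RPKM of the JNK-activating MAP2K genes MAP2K7 and MAP2K4. Among the MAP2K genes of p38, MAP2K3 made up 99.5% ± 0.163. MAP2K6 had 8, 6 and 6 counts in control and 0, 4 and 4 in shtRF, too few to test. The 0 of shtRF replicate 1 allows up to 0.0430 CPM before scaling, by a floor of 3 counts that covers counting error only. If both mates of a read pair were counted, the limit would be higher. The p38 genes were more evenly spread, with 57.1% ± 1.52 for MAPK13, 28.8% ± 1.88 for MAPK14, 9.90% for MAPK12 and 4.15% for MAPK11. MAPKAPK2 held 84.2% ± 0.447 of the RPKM of the MAPKAPK genes.

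**Figure D1:**
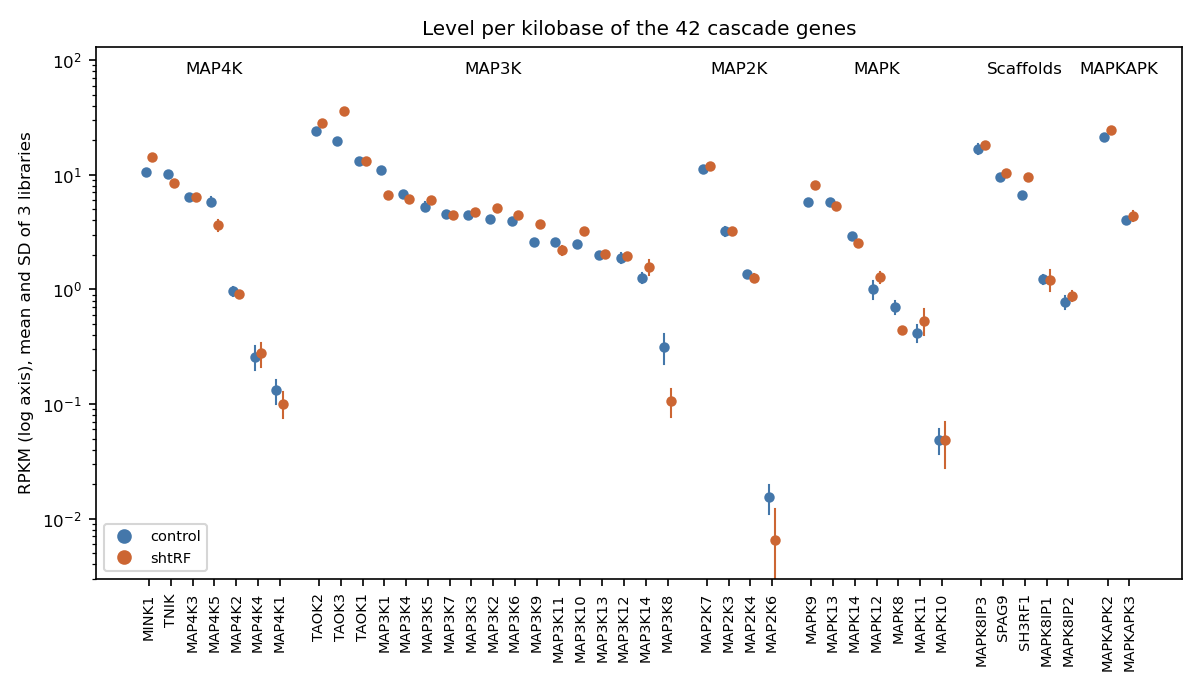
RPKM on a log axis of the 42 genes by tier, ordered within each tier by the control level. Points are means and lines SDs of 3 libraries per group, and values run from 0.00647 RPKM for MAP2K6 in shtRF to 35.8 RPKM for TAOK3 in shtRF.

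Which tiers changed after tRF-1-Ser knockdown was asked with edgeR's quasi-likelihood test over 19628 genes, with Benjamini-Hochberg adjustment over all of them and a threshold of 0.05. Of the 41 tested members 22 passed, or 53.7%, where 39.5% of all tested genes did. The share over all genes covers every level that could be tested, and a share among genes of like level was not computed. There were 16 members higher in shtRF, set against 20.6% of all genes, and 6 lower, set against 18.9%. The balance over all genes turned with the scaling and the test, from 4046 higher and 3704 lower here to 3508 and 4174 under upper quartile scaling, where 14 members were higher and 6 lower, and to 2900 and 3803 with limma-trend on log2(RPKM + 1), where 9 members were higher and 5 lower. In 25 of the 41 members the groups did not overlap, against 48.7% of all genes. Of these members 18 were higher (43.9% of those tested, against 24.9% of all genes) and 7 lower (17.1% against 23.8%). The median log2 fold change of the members was 0.12, with a range from -1.53 to 0.91, and that of all tested genes was -0.0025. A change of at least 0.5 on the log2 scale with groups apart was found in 8 members and in 15.8% of all genes. TAOK3, SH3RF1, MAP3K9 and MAPK9 were the 4 higher ones, against 7.74% of all genes, and MAP3K8, MAP3K1, MAP4K5 and MAPK8 the 4 lower ones, against 8.03%. A change of over 2-fold was reached by MAP3K8 alone, against 5.77% of all genes. Without the 4 members that share at least 10% of their exonic bases with another gene, 14 of 37 were higher and 6 lower.

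Calls in both directions met within 3 of the 6 tiers. The MAP4K tier had 1 member higher and 2 lower of 7, the MAP3K tier 8 higher and 3 lower of 17, the MAP2K tier 1 higher of the 3 tested, and the MAPK tier 2 higher and 1 lower of 7. The scaffolds had 3 of 5 higher, and of the MAPKAPK genes MAPKAPK2 passed. These counts stand against 20.6% of all genes higher and 18.9% lower. The median log2 fold change was -0.04 for MAP4K, 0.12 for MAP3K, 0.05 for MAP2K, 0.05 for MAPK, 0.18 for scaffold and 0.22 for MAPKAPK genes. Summed over a tier, the RPKM was 110.2 ± 0.885 in control and 129 ± 1.61 in shtRF for the MAP3K genes, a ratio of 1.17. Within that sum the 3 TAO kinase genes went from 56.93 ± 0.506 to 76.97 ± 1.69, a ratio of 1.35. TAOK3 alone went from 19.8 to 35.8 RPKM. MAP3K9, MAP3K10 and MAP3K11 together had a ratio of 1.19, and MAP3K1, MAP3K2, MAP3K3 and MAP3K4 together 0.859. The ratio of 1.17 is thus not read as a rise across the tier. The MAP4K genes summed to 34.3 ± 0.527 in control and 33.9 ± 0.467 in shtRF, a ratio of 0.989. The sum over the 3 JNK genes went from 6.58 ± 0.239 to 8.69 ± 0.211, a ratio of 1.32. The sum over the 4 p38 genes went from 10.1 ± 0.605 to 9.67 ± 0.660, a ratio of 0.960. Its libraries overlapped, at 9.54 to 10.7 in control and 8.97 to 10.3 in shtRF. Unlike the fold changes, these RPKM sums carry no TMM factor. The factors were 1.01 to 1.03 in control and 0.961 to 1.01 in shtRF. Sums with TMM scaling were not computed, so the MAP4K and p38 ratios just under 1 are not read as falls.

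**Figure D2:**
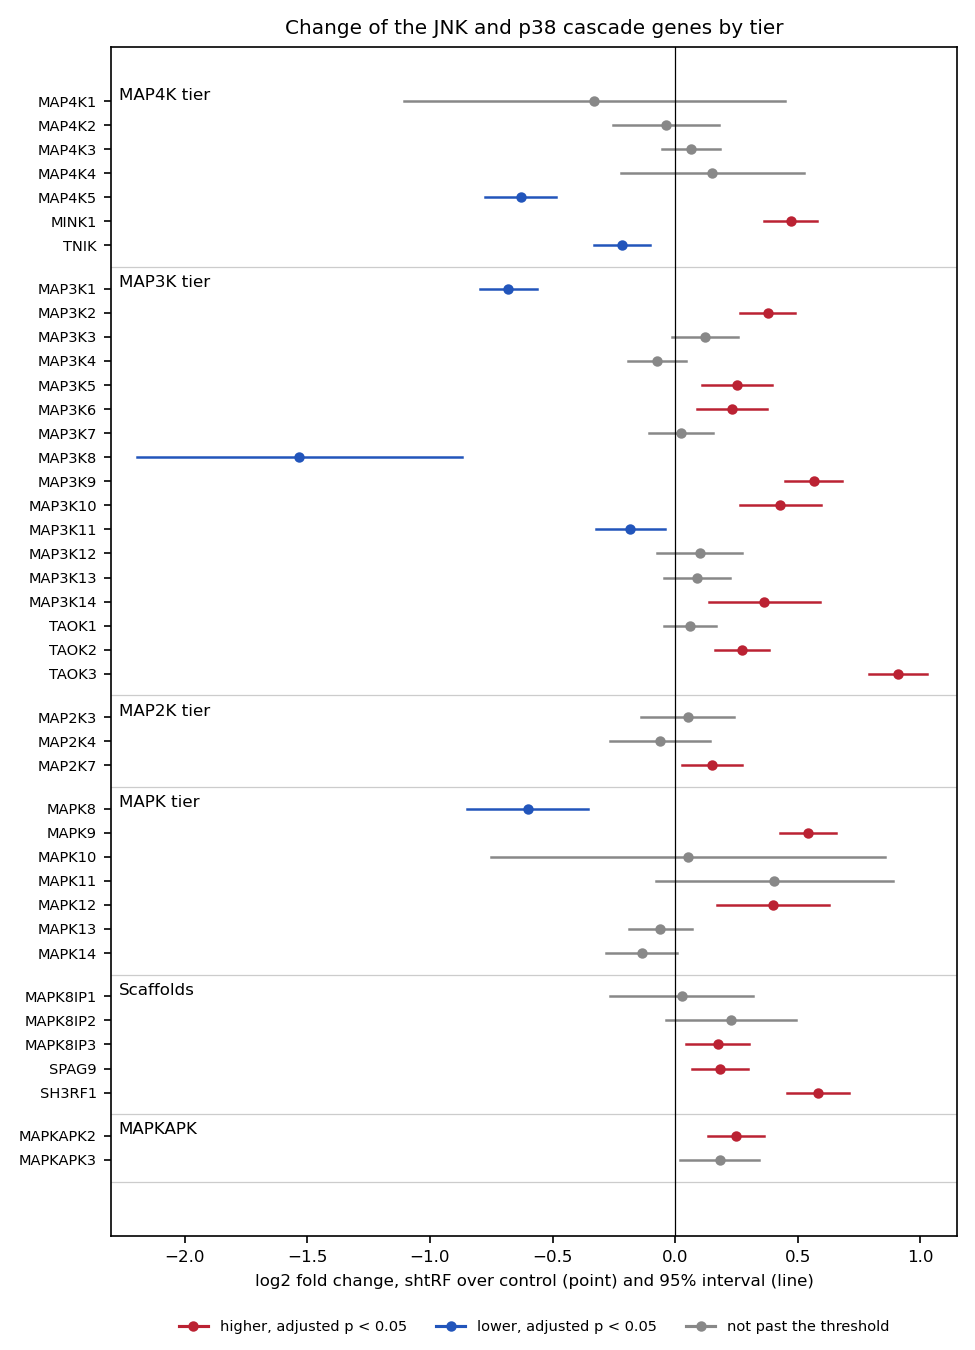
Log2 fold change of shtRF over control for the 41 tested genes by tier, with the 95% interval of edgeR's quasi-likelihood fit as a line. Red marks the 16 genes higher and blue the 6 lower at an adjusted p under 0.05, and both colours occur in the MAP4K, MAP3K and MAPK tiers.

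At the top of the cascade, the germinal centre kinase genes moved in both directions. MAP4K5 (chr14:50418501-50561126), an activator of JNK below TNF receptor adaptors, had 42.2, 47.6 and 41 CPM in the control libraries and 30.8, 26.7 and 27.2 CPM in the shtRF libraries. Every shtRF library lay below every control library (log2 fold change -0.63 ± 0.07 SE, adjusted p = 2.26e-07). MINK1, a kinase related to NCK-interacting kinases, was higher, with 82.6, 82.6 and 78.7 CPM in the control libraries and 109.8, 114 and 114 CPM in the shtRF libraries. All shtRF libraries lay above all control libraries (log2 fold change 0.47 ± 0.05 SE, adjusted p = 1.95e-07). TNIK, which binds TRAF2 and NCK and also acts in Wnt signalling, was lower and went from 84.9 ± 3.15 to 73.1 ± 2.95 CPM, a difference of -0.22 on the log2 scale (adjusted p = 0.00297). MAP4K1, MAP4K2, MAP4K3 and MAP4K4 did not pass, with log2 fold changes between -0.33 and 0.15. MAP4K1, a kinase of blood cells, was at 0.510 CPM in control, so the 95% interval of its log2 fold change, -1.11 to 0.45, left room for a change in either direction.

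In the MAP3K tier, TAOK3 (chr12:118149801-118372945) had the largest rise of the cascade. It had 207, 203 and 206 CPM in the control libraries and 356, 404 and 396 CPM in the shtRF libraries. The lowest shtRF library lay well above the highest control library, and the log2 fold change of 0.91 ± 0.06 (SE; adjusted p = 2.40e-11) corresponded to 1.88-fold. TAOK2 rose less, from 214 ± 6.66 to 259 ± 7.57 CPM (SD, n = 3; log2 fold change 0.27, adjusted p = 2.25e-04). TAOK1 was at 219 ± 5.42 and 228 ± 4.10 CPM, and its groups did not overlap although it missed the threshold (log2 fold change 0.06, adjusted p = 0.368). TAOK3 supplied 34.7% ± 0.323 of the TAO RPKM in control and 46.4% ± 1.06 in shtRF, while TAOK2 went from 42.2% to 36.4% and TAOK1 from 23.0% to 17.1%. With that, TAOK3 passed TAOK2 as the highest member per length, at 35.8 against 28 RPKM.

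MAP3K1 (chr5:56815574-56896152), which encodes MEKK1, a kinase upstream of both JNK MAP2Ks and a gene often mutated in luminal breast cancer, had 82.9, 81.9 and 87.4 CPM in the control libraries and 53.8, 50.2 and 53.5 CPM in the shtRF libraries. The groups were far apart (log2 fold change -0.68 ± 0.06 SE, adjusted p = 1.76e-09). Of the other 3 MEKK genes 1 passed, in the other direction. MAP3K2 was higher in every shtRF library, with 44.8, 46.8 and 47.5 CPM in the control libraries and 59.2, 60.8 and 60.7 CPM in the shtRF libraries (log2 fold change 0.38, adjusted p = 7.81e-06). MAP3K3 and MAP3K4, the latter the MAP3K that GADD45 proteins activate, had log2 fold changes of 0.12 and -0.07 and did not pass. The summed RPKM of the 4 MEKK genes went from 26.4 ± 0.371 to 22.7 ± 0.434, a ratio of 0.859.

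MAP3K8, also called TPL2 or COT and best known for activating the ERK branch, fell by the largest factor from the lowest level of the tier. It had 48, 95 and 109 counts in control and 34, 20 and 24 in shtRF, or 0.738, 1.26 and 1.37 CPM in the control libraries and 0.484, 0.291 and 0.387 CPM in the shtRF libraries. The control libraries ranged widely but all lay above the shtRF libraries (log2 fold change -1.53 ± 0.32 SE, adjusted p = 5.28e-04). Its 95% interval of -2.20 to -0.87 was the widest among the members that passed. MAP3K14, which encodes the NF-kB-inducing kinase, was higher and went from 7.25 ± 0.677 to 9.34 ± 1.26 CPM, by 0.36 on the log2 scale (adjusted p = 0.0105). It shares 12.1% of its exonic bases with its antisense gene MAP3K14-AS1, which rose by 0.46 on the same scale, and its call was lost without control replicate 1 (adjusted p = 0.0649) and without shtRF replicate 3 (0.0931).

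The mixed-lineage kinase genes, whose products bind activated RAC and CDC42, were split. MAP3K9 (chr14:70722526-70809534) had 32.1, 31.7 and 31.4 CPM in the control libraries and 48.1, 45.9 and 46.9 CPM in the shtRF libraries. Its replicates differed little in either group, and the groups were apart (log2 fold change 0.56 ± 0.06 SE, adjusted p = 4.25e-08). MAP3K10 also rose, from 11.1 ± 0.608 to 15 ± 0.135 CPM (a log2 fold change of 0.43, adjusted p = 1.70e-04). MAP3K11, which encodes MLK3, was slightly lower, from 26.9 ± 0.631 to 23.7 ± 1.63 CPM (a log2 fold change of -0.18, adjusted p = 0.0367). That call was lost without control replicate 2 (adjusted p = 0.0863) or 3 (0.0596) and without shtRF replicate 2 (0.160) or 3 (0.160). The neuronal relatives MAP3K12 and MAP3K13 did not pass, with log2 fold changes of 0.10 and 0.09, and MAP3K12 shares 18.7% of its exonic bases with PCBP2.

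MAP3K5, which encodes ASK1, the MAP3K that thioredoxin holds inactive until oxidative stress, had 25.9, 25.9 and 30.4 CPM in the control libraries and 33, 32 and 33 CPM in the shtRF libraries. Control replicate 3 came nearest to the shtRF libraries without reaching them (log2 fold change 0.25 ± 0.07 SE, adjusted p = 0.00550). Its relative MAP3K6 had a similar log2 fold change of 0.23 ± 0.07 (SE; adjusted p = 0.00944), and lost its call without shtRF replicate 3 (adjusted p = 0.0580). With limma-trend on log2(RPKM + 1) neither passed, at an adjusted p of 0.0818 for MAP3K5 and 0.0636 for MAP3K6. MAP3K7, which encodes TAK1, the kinase of the interleukin-1 and TGF-beta routes, had 31, 33.9 and 32 CPM in the control libraries and 31.2, 32.6 and 34.7 CPM in the shtRF libraries. The groups overlapped, and the interval of the log2 fold change, -0.11 to 0.15, held it to a narrow range around 0.02 (adjusted p = 0.811).

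In the MAP2K tier changes were small. MAP2K7 (chr19:7903843-7914478), which phosphorylates JNK and not p38, had 58, 59.4 and 52.7 CPM in the control libraries and 60.6, 65.5 and 62.8 CPM in the shtRF libraries. The lowest shtRF library lay only just above the highest control library (log2 fold change 0.15 ± 0.06 SE, adjusted p = 0.0449). The call was lost in 11 of 16 alternatives, among them the fits without control replicate 1 (adjusted p = 0.0696) or 3 (0.185) and without shtRF replicate 2 (0.182) or 3 (0.101). MAP2K4, which acts on both JNK and p38, had 7.36, 7.73 and 7.89 CPM in the control libraries and 7.67, 7.53 and 6.81 CPM in the shtRF libraries, and its groups overlapped (log2 fold change -0.06, interval -0.27 to 0.14, adjusted p = 0.658). MAP2K3, the more abundant of the p38-specific MAP2K genes, had 11.3, 13.1 and 11.4 CPM in the control libraries and 11.1, 12.7 and 13.2 CPM in the shtRF libraries. It did not pass either (log2 fold change 0.05, interval -0.14 to 0.24, adjusted p = 0.699).

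These counts are per gene and do not separate the transcript forms of MAP2K7, whose exon 2 the study assayed by PCR with the following primers, shown with that exon because both forms enter the MAP2K7 count.
Forward primer: ggatcgacctcaacctggat
Reverse primer: gggagctctctgaggatgg
Exon 2: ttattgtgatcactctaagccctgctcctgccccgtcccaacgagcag
On GENCODE 29 transcripts the primers enclose 153 bases of the transcript that holds exon 2 (48 bases, chr19:7905808-7905855, plus strand) and 105 bases of 3 transcripts that skip it. The share of each form was not analysed here.

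In the MAPK tier, the 2 main JNK genes moved in opposite directions. MAPK9 (chr5:180233143-180292099), which encodes JNK2, had 48.5, 51.7 and 53.6 CPM in the control libraries and 74.8, 74.9 and 74.6 CPM in the shtRF libraries. The shtRF libraries lay within 1 CPM of each other and above all control libraries (log2 fold change 0.54 ± 0.06 SE, adjusted p = 5.54e-08). MAPK8 (chr10:48306639-48439360), which encodes JNK1, had 7.06, 7.08 and 5.67 CPM in the control libraries and 4.10, 4.41 and 4.53 CPM in the shtRF libraries. Control replicate 3 was the lowest control library and still lay above all shtRF libraries (log2 fold change -0.60 ± 0.12 SE, adjusted p = 3.30e-04). The ratio of MAPK9 to MAPK8 RPKM in a library, which no scaling between libraries can change, was 8.38 in control and 18.5 in shtRF as a geometric mean. It was higher in each shtRF library than in any control library (difference of 1.14 on the log2 scale; two-sided exact permutation test over libraries, p = 0.1, the smallest that 3 against 3 allows, and 0.225 adjusted over 9 pairs). MAPK9 held 94.3% ± 0.0422 of the JNK RPKM in shtRF and MAPK8 5.10% ± 0.266. MAPK10 was at 0.469 and 0.485 CPM, and its interval of -0.75 to 0.86 was too wide to speak of a change or of none.

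Of the 4 p38 genes, MAPK12 passed. MAPK13, which encodes p38 delta and is the most abundant of them here, had 43.9, 38.7 and 39.5 CPM in the control libraries and 40.1, 36.9 and 40.0 CPM in the shtRF libraries. Its groups overlapped (log2 fold change -0.06, interval -0.19 to 0.07, adjusted p = 0.488). MAPK14, which encodes p38 alpha, the broadly expressed form, had 19.3, 20.2 and 19 CPM in the control libraries and 17.9, 17.8 and 17.6 CPM in the shtRF libraries. All shtRF libraries lay below all control libraries, by a margin that did not pass the test over all genes (log2 fold change -0.14, adjusted p = 0.133). MAPK12 was higher, from 9.28 ± 1.68 to 12.2 ± 1.14 CPM (a log2 fold change of 0.40, adjusted p = 0.00606), although control replicate 1 at 11.1 CPM lay above shtRF replicate 2 at 10.9 CPM. It shares 29.3% of its exonic bases with HDAC10, which rose by 0.45, and what share of its reads came from either gene was not tested. With limma-trend on log2(RPKM + 1) MAPK12 did not pass (adjusted p = 0.134). MAPK11 was at 1.11 and 1.46 CPM and did not pass (log2 fold change 0.40, adjusted p = 0.181). In shtRF, MAPK13 held 55.1% of the p38 RPKM, MAPK14 26.3%, MAPK12 13.1% and MAPK11 5.49%.

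**Figure D3:**
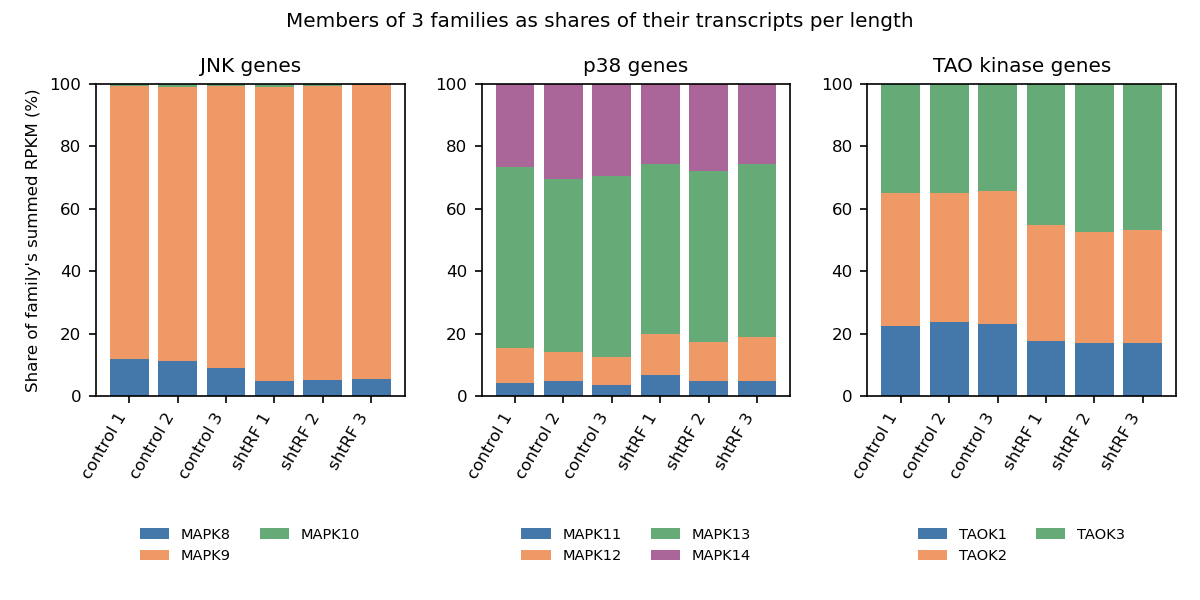
Share of the summed RPKM of the JNK, p38 and TAO kinase genes held by each gene in each of the 6 libraries, in percent. MAPK8 takes 8.91% to 11.8% of the JNK bar in control and 4.81% to 5.33% in shtRF, and TAOK3 takes 34.4% to 35.0% of the TAO bar in control and 45.3% to 47.3% in shtRF.

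All 5 scaffold genes had positive log2 fold changes, as did 9743 of the 19628 tested genes. Of the 5, 3 passed as higher, set against 20.6% of all genes, and only SH3RF1 passed in every alternative. SH3RF1 (chr4:169094256-169271105), which encodes POSH, a scaffold that binds RAC, MLKs, MAP2Ks and JNK, had 38.8, 35.8 and 35.8 CPM in the control libraries and 54.2, 58.7 and 52.2 CPM in the shtRF libraries. The groups were clearly apart (log2 fold change 0.58 ± 0.06 SE, adjusted p = 9.11e-08). MAPK8IP3, which encodes JIP3, a scaffold that also links cargo to kinesin, had 184, 170.4 and 153 CPM in the control libraries and 188, 188 and 197 CPM in the shtRF libraries. Its control libraries were spread and its highest lay close to the shtRF libraries (log2 fold change 0.17 ± 0.06 SE, adjusted p = 0.0281). The call was lost without control replicate 2 (adjusted p = 0.0727) or 3 (0.156) and without shtRF replicate 2 (0.0515) or 3 (0.120), and under upper quartile scaling (0.0770). SPAG9, which encodes the related JIP4, had 114, 108 and 113 CPM in the control libraries and 122, 122 and 134 CPM in the shtRF libraries. The groups did not overlap (log2 fold change 0.18 ± 0.05 SE, adjusted p = 0.0106), but the call was lost without control replicate 2 (0.0680) and without shtRF replicate 3 (0.0962). MAPK8IP1 and MAPK8IP2, scaffolds known from neurons and endocrine cells, were at 4.25 and 4.51 CPM in control and did not pass, at 0.03 and 0.23 on the log2 scale. MAPK8IP1 shares 11.7% of its exonic bases with another gene.

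Below p38, MAPKAPK2 had 86.9, 87.8 and 89.1 CPM in the control libraries and 103, 99.4 and 111 CPM in the shtRF libraries. Each shtRF library lay above each control library (log2 fold change 0.25 ± 0.05 SE, adjusted p = 9.11e-04). MAPKAPK3 had 15, 16 and 15.3 CPM in the control libraries and 18.8, 17.6 and 16.2 CPM in the shtRF libraries. Its groups did not overlap either, but it missed the threshold (log2 fold change 0.18, adjusted p = 0.0684), which it passed without shtRF replicate 3 (0.0396). The RPKM ratio of MAPKAPK3 to MAPKAPK2 was 0.188 in control and 0.179 in shtRF and overlapped between groups (two-sided exact permutation test, p = 0.9).

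**Figure D4:**
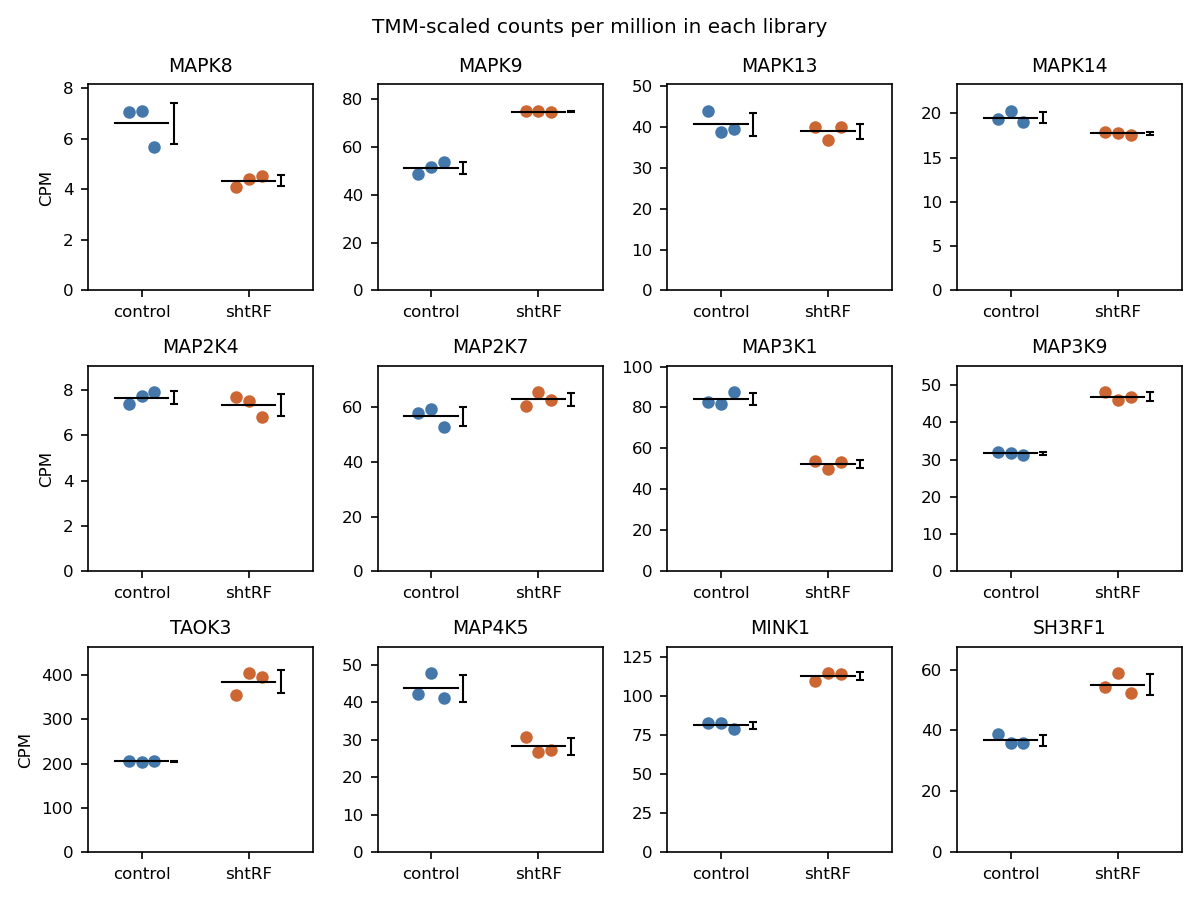
TMM-scaled CPM of 12 cascade genes in each library, with the group mean as a horizontal line and the SD of 3 libraries as a bar beside it. The groups overlap for MAPK13 and MAP2K4 and are apart for the other genes shown, with MAPK8, MAPK14, MAP3K1 and MAP4K5 lower and MAPK9, MAP2K7, MAP3K9, TAOK3, MINK1 and SH3RF1 higher in shtRF.

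Of the 9 ratios between paralogs that were compared within libraries, 4 did not overlap between groups, and each of these had the smallest p that 6 libraries allow (two-sided exact permutation test, p = 0.1; 0.225 adjusted over the 9 pairs). Besides MAPK9 to MAPK8, these were TAOK3 to TAOK1, from 1.51 to 2.71, MAP2K7 to MAP2K4, from 8.21 to 9.54, and MAP3K3 to MAP3K2, from 1.09 to 0.914. MAP2K7 to MAP2K4 was barely apart, with log2 ratios of 3.128 in control replicate 1 and 3.132 in shtRF replicate 1. How often ratios of other genes do not overlap was not computed, and of single genes 48.7% did not. The ratios of MAPK13 to MAPK14, MAP3K6 to MAP3K5, MINK1 to MAP4K4, MAPKAPK3 to MAPKAPK2 and MAPK8IP3 to SPAG9 overlapped, with differences between -0.07 and 0.31 on the log2 scale. No ratio could thus reach 0.05 in this design.

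The genes next to the cascade were taken from lists written by function, and their counts stand against the 20.6% of all genes higher and 18.9% lower given above. Of 18 tested adaptors and other activators around the MAP3K tier, 6 were higher and 2 lower, with a median log2 fold change of 0.06. TRAF5, an adaptor of TNF receptor family members, had 19.4, 20.6 and 20.7 CPM in the control libraries and 52.5, 52.1 and 52.8 CPM in the shtRF libraries (log2 fold change 1.38, adjusted p = 6.08e-14). TAB3, a partner of the TAK1 kinase that MAP3K7 encodes, rose by 0.67. GADD45B, an activator of the MAP3K4 product, fell to 3.82 ± 0.707 CPM from 6.79 ± 0.317 CPM (log2 fold change -0.83, adjusted p = 2.34e-05). MAP3K20 and MAP3K21 were not matched in the table and are not analysed here.

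Of the 11 tested phosphatases that act on JNK or p38, 7 were higher and the other 4 did not pass, with a median log2 fold change of 0.27. DUSP10, which dephosphorylates p38 and JNK, had 4.03, 4.20 and 3.76 CPM in the control libraries and 7.02, 6.36 and 7.35 CPM in the shtRF libraries (log2 fold change 0.79, adjusted p = 8.11e-06). PPM1L, a PP2C-type phosphatase that acts on TAK1 and ASK1, rose by 0.76 (adjusted p = 1.28e-07). DUSP8 rose by 0.59 from 1.82 CPM (adjusted p = 0.0136), and lost its call without control replicate 3 (0.0776) and without shtRF replicate 3 (0.0531). The 1 tested gene of the list with a negative log2 fold change was PPM1K, at -0.14 (adjusted p = 0.206), and PTPN7 and PTPRR had too few counts to test.

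Of the 20 substrates, 6 were higher and 3 lower, with a median of -0.04. MEF2C, a transcription factor that p38 phosphorylates, had 9.78, 9.89 and 10.7 CPM in the control libraries and 0.456, 0.641 and 0.774 CPM in the shtRF libraries (log2 fold change -4.03, adjusted p = 1.06e-14). HSPB1, the small heat shock protein downstream of MAPKAPK2, had 64, 75.4 and 58.9 CPM in the control libraries and 102, 105 and 106 CPM in the shtRF libraries (log2 fold change 0.66, adjusted p = 8.30e-08). JUN had 45, 45.1 and 48.1 CPM in the control libraries and 64.4, 67 and 69.1 CPM in the shtRF libraries, and its groups did not overlap (log2 fold change 0.54, adjusted p = 8.47e-08).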

How the data were processed

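Strand-specific libraries of messenger RNA were sequenced as read pairs. The authors deposited a gene table of raw counts and RPKM values. The submitters' processing notes name Trimmomatic 0.36, featureCounts, Subread 1.5.1, edgeR 3.12.1 and GRCh38. The aligner and the strand setting of the counting are not given in the sources used here. For 4991 genes matched to the deposited RPKM table, 100% of values equalled count over length and total (tolerance 1e-06), so RPKM was recomputed for all genes. Small counts were mostly even (75.4% of counts of 1 to 4, against 50.4% of counts of at least 1000), as when both mates of a pair are counted, so fragments may be fewer than counts. Depth was 63541413 to 78917459 counts per library.

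Groups were taken from the sample titles. edgeR 4.0.16 (R 4.3.3) was run on all 6 libraries with filterByExpr (minimum count 10), TMM normalisation (factors 0.961 to 1.03), the quasi-likelihood test with group as the only term, and Benjamini-Hochberg adjustment over 19628 tested genes. Coordinates are those of the deposited table on GRCh38, and sequences were read from GENCODE 29 transcripts. RPKM was taken on library totals without TMM factors, also in the sums over genes and in limma-trend. Ratios and shares used RPKM within a library.

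The members and lists were chosen with earlier results of these data known. Described with their value in every library are 16 members set by role (JNK and p38 genes, MAP2K genes, the MEKK1, ASK1 and TAK1 genes, scaffolds and MAPKAPK genes) and each other member past the threshold whose groups were apart and whose log2 fold change was at least 0.5 in size, and from each list up to 3 called genes with the largest change and a mean of at least 2 CPM, plus JUN. Values of the remaining members were added after they were seen. A few genes outside the cascade are counted in their lists and not reported here by name. Alternatives were RLE and upper quartile scaling, 2 other filters, DESeq2 1.42.0, the edgeR exact test, limma-trend (limma 3.58.1) on log2(RPKM + 1) and log2(RPKM + 0.1), a replicate block, counts divided by 2, leaving out each library and, chosen after seeing the data, leaving out members with at least 10% exon overlap.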

Additional observations from a re-analysis of the deposited data

How the results depend on the processing

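None of the 22 members past the threshold changed direction under the 16 alternatives fitted. Among the members that did not pass, MAP4K2, MAP4K4, MAP3K7, MAP2K3, MAPK10 and MAPK8IP1 changed sign in 1 to 5 alternatives without passing in any. Of 656 values over members and alternatives, 615 kept their side of the threshold, 40 no longer passed and 1 newly passed. Of the 22 members past the threshold, 14 passed in every alternative, and the 8 that did not were MAP3K5, MAP3K6, MAP3K11, MAP3K14, MAP2K7, MAPK12, MAPK8IP3 and SPAG9, each of which fell short under limma-trend. MAPKAPK3 newly passed without shtRF replicate 3. Under limma-trend with a pseudocount of 1 RPKM 9 members were higher and 5 lower, and with 0.1 RPKM also 9 and 5. Over all genes 2900 were higher and 3803 lower with 1 RPKM, and 2903 and 3840 with 0.1 RPKM. Both fits used RPKM without TMM factors, so they differ from the main fit in scaling as well as in the test. The cause of the shift was not tested. The other alternatives gave 12 to 16 higher and 5 or 6 lower, and the fits without 1 library set the lower end, with 12 higher and 5 lower without shtRF replicate 3.

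With CPM in place of RPKM, which leaves out gene length, the family shares moved: MAPK9 held 93.9% in shtRF, MAP2K7 88.1% in control and 89.6% in shtRF, MAPKAPK2 85.1% in control, and TAOK3 32.2% in control and 44.2% in shtRF. The ratio of MAPK9 to MAPK8 differed by 1.05 to 1.28 on the log2 scale and that of TAOK3 to TAOK1 by 0.82 to 0.89 when each library was left out. The differences for MAP3K6 to MAP3K5, MAPKAPK3 to MAPKAPK2 and MAPK8IP3 to SPAG9 were near 0 and took either sign in these fits. MAP2K6 to MAP2K3 was planned and not computed, since 1 library had 0 counts of MAP2K6.

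The replicate number did not pair the libraries, as libraries that share a number deviated from their groups with correlations of 0.059, 0.018 and 0.017. The replicate block left 16 members higher and 6 lower, and over all genes 4123 and 3776, against 4046 and 3704 without it. In the other lists together it gave 23 higher and 9 lower, against 21 and 9. Depth limits MAP4K1, MAP3K8, MAPK10, MAPK11 and MAP2K6, which had under 2 CPM in every library.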

Other observations

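Among the ERK branch and atypical MAPK genes, read in the same libraries, 2 were higher and 4 lower of 17 tested. That is 35.3% called, near the 39.5% of all tested genes, of which 20.6% were higher and 18.9% lower. The median log2 fold change was -0.13, and 2 of the 19 genes listed, MOS and MAPK4, had too few counts. MAPK15, an atypical MAPK, had 3.70, 2.89 and 2.71 CPM in the control libraries and 1.98, 2.11 and 1.53 CPM in the shtRF libraries (edgeR log2 fold change -0.72, adjusted p = 0.00224). MAPK3, which encodes ERK1, had a log2 fold change of -0.02 (adjusted p = 0.774). BRAF was lower at -0.27 (adjusted p = 0.00642) and shares 11.9% of its exonic bases with NDUFB2. MAP2K5 and MAPK6 were lower at -0.24 and -0.16. MAP2K5 lost its call without control replicate 1 (0.0835) and without shtRF replicate 2 (0.0568) or 3 (0.121), and MAPK6 without control replicate 2 (0.0795) and without shtRF replicate 1 (0.0678) or 3 (0.0657). Values of MAPK3, MAP2K5 and MAPK6 were chosen for the text after they were seen.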
